A study of Homo sapiens with 6 samples.

Results

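The nuclear genes of oxidative phosphorylation were followed across the U87MG glioma line and its derivatives. The genes were taken as every probe set of the array whose annotated symbol starts with NDUFA, NDUFB, NDUFC, NDUFS, NDUFV, UQCR, COX4 to COX8 or ATP5, or is CYC1 or a succinate dehydrogenase gene from SDHA to SDHD. A total of 174 probe sets carried 1 such symbol and stood for 91 of the 19775 genes on the array, and each gene was read from the brightest of these. The 91 genes fell into 44 of complex I, 3 of complex II, 7 of complex III, 18 of complex IV and 19 of complex V. By role, 77 were structural subunits (the inhibitor ATP5IF1 included) and 8 were assembly factors of complex I. A further 3 were noncoding RNAs beside or opposite a subunit gene, 2 were pseudogenes and 1 was the supercomplex factor COX7A2L. NDUFC2, NDUFS5, NDUFS8 and UQCRH lay only on probe sets shared with another symbol and were left out, and SDHB and UQCRFS1 were not analysed here. ATP5MF was read from a dim probe set (mean 5.59), because its bright one (mean 12.52) is shared with ARMC2-AS1.

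Oxidative phosphorylation runs on the inner mitochondrial membrane. Complex I (NADH dehydrogenase) and complex II (succinate dehydrogenase) pass electrons to ubiquinone, complex III passes them to cytochrome c, and complex IV hands them to oxygen. Complexes I, III and IV pump protons, and complex V, the ATP synthase, lets the protons back to make ATP. Most subunits are encoded in the nucleus, and a small catalytic set is encoded in mitochondrial DNA. Glioma cells in culture use glycolysis as well as respiration, and complex II is also an enzyme of the citric acid cycle.

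Gene expression had been measured on 6 single-colour arrays, 2 for each of 3 groups. U87MG is an established glioblastoma line, obtained from a cell bank and grown in medium with 10% serum. U87MGL is a derivative labelled non-invasive, and U87MGR one labelled highly invasive. Both derivatives came from U87MG cells injected into the striatum of nude mice (BALB/c nu/nu), recovered from the brain tumours, cultured under the same conditions, and passed through 4 rounds in all. The U87MGL arrays carried the cell line names U87MGL2 and U87MGL3 and the U87MGR arrays U87MGR2 and U87MGR3. The labels do not say what these numbers stand for, and the spread within a derivative includes any difference between the cells so named. The U87MG arrays were labelled only as biological replicates. The questions were whether the respiratory genes differed between the invasive and the non-invasive derivative, and between each derivative and its parent.

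Values were log2 signals between 2.38 and 14.58, and the medians of the arrays lay between 5.29 and 5.35. Spiked-in control probe sets (45) separated the arrays into U87MG replicate 1 with U87MGR replicate 2, both U87MGL arrays with U87MGR replicate 1, and U87MG replicate 2 alone. Distances within these clusters were 0.90 to 1.44 and between them 5.59 to 8.84, so that U87MGL shared no cluster with U87MG. Where clusters are taken as a block below, U87MGL and U87MG are linked only through U87MGR replicates 1 and 2. A U87MGL value so adjusted carries the difference between those 2 arrays, which cannot be told apart from a cluster effect. With 3 clusters as a block U87MG replicate 2, alone in its cluster, drops out. The 3 prime minus 5 prime signal of actin was -0.01 and 0.22 in U87MG and 0.25 to 0.39 in the derivatives, and for GAPDH the same measure gave 0.24 for replicate 2 of U87MGR against 0.03 to 0.07 for the other arrays; their part in the differences was not tested. Of 9 glioma line markers, VIM (14.30 to 14.46) and CD44 (12.96 to 13.30) were bright on every array, whereas GFAP (5.21 to 5.45), SOX2 (4.77 to 4.96) and S100B (3.18 to 3.51) were near or under the limit of 4.73 set for testing. The glutamate transporter SLC1A3 was lower than in U87MG in U87MGR (-1.40, adjusted p = 0.0185, limma) and U87MGL (-1.07, adjusted p = 0.0254, limma), and NES was at 1.18 and 1.14 and did not pass. Markers of other cell types were read from probe sets for human genes. Any host cells would be mouse cells, and whether these probe sets read mouse RNA was not tested. The values therefore cannot show host cells to be present or absent. Of 10 microglia and macrophage markers, 5 passed that limit and none passed the test, and PTPRC, CX3CR1, P2RY12, C1QB and TYROBP lay under the limit. TMEM119 was the farthest of these, at 7.07 and 5.88 in U87MG, 6.12 and 4.84 in U87MGL, and 4.57 and 4.84 in U87MGR, a difference from U87MG of -1.77 in U87MGR (adjusted p = 0.102, limma) and -0.995 in U87MGL (adjusted p = 0.275, limma). The log2 summed signal of the list was 8.89 to 9.07 in U87MG, 8.82 to 8.88 in U87MGL and 8.76 in both U87MGR arrays. Of 10 tested markers of endothelium and pericytes, PDGFRB was lower (-1.36 in U87MGR and -0.97 in U87MGL) and ABCC9 higher (0.91 and 0.83) than in U87MG, and the summed signal was 9.96 in both U87MG arrays, 9.88 and 9.78 in U87MGL, and 9.79 and 9.63 in U87MGR. Of 8 tested neuron markers MAP2 was lower in U87MGL by -1.74 (adjusted p = 0.0226, limma). No astrocyte or oligodendrocyte marker passed, and the astrocyte sum was 12.90 and 12.78 in U87MG, 12.94 and 12.50 in U87MGL, and 12.65 and 11.80 in U87MGR. The part of these markers in the results was not tested. In bulk RNA a lower share of one kind of cell and less RNA per cell cannot be told apart.

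Across the 3 groups the respiratory chain and the ATP synthase were bright and close to level. Over the 91 genes the median log2 signal was 11.61 and 11.62 on the U87MG arrays, 11.42 and 11.47 on the U87MGL arrays, and 11.47 and 11.57 on the U87MGR arrays. All 4 derivative arrays lay below both U87MG arrays on this measure, and U87MGL and U87MGR met at 11.47. The mean log2 signal kept that order, at 10.72 and 10.79 in U87MG, 10.70 and 10.68 in U87MGL, and 10.67 and 10.69 in U87MGR. On the log2 summed signal U87MGR replicate 2 (18.229) lay above U87MG replicate 1 (18.225). Of the 74 subunits bright enough to be tested, 69 had a mean above 10. The replicates of these genes were close: the SD of the difference between replicates was 0.23 in U87MG, 0.15 in U87MGL and 0.24 in U87MGR, against 0.45, 0.28 and 0.34 over all genes tested.

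For each gene the 3 group means were compared with limma over all 6 arrays, and p-values were adjusted by the Benjamini-Hochberg method over the 14513 genes tested. Of the 91 genes, 87 passed the limit on dim genes. The other 4 were the pseudogene COX6A1P1 and the tissue-restricted isoforms COX7A1, COX7B2 and COX8C, all in complex IV, with signals between 2.97 and 4.99. A fold change is given below as a log2 difference, the first group named minus the second, with the limma standard error (SE) over 2 arrays a group.

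**Figure D1:**
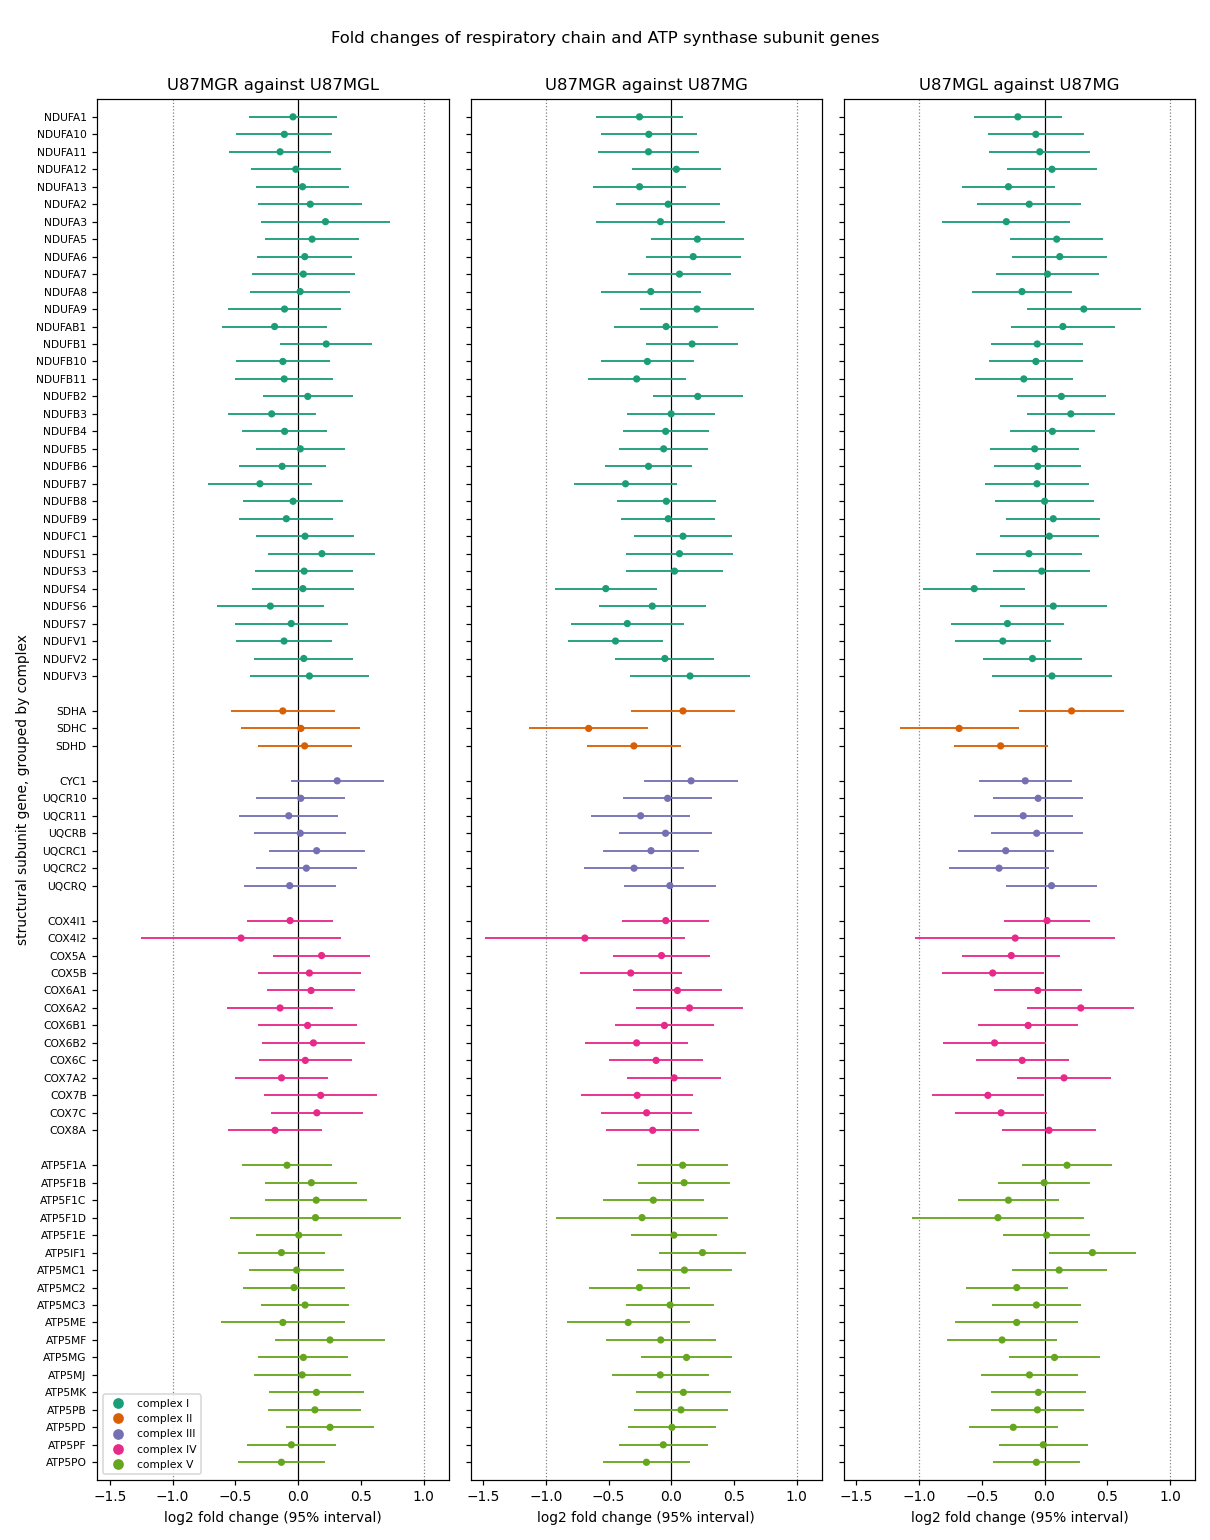
Log2 fold change (x axis, point) and 95% interval (bar) of the 74 tested structural subunit genes (y axis, coloured by complex) in the 3 comparisons; dotted lines mark a 2-fold difference. No subunit passed an adjusted p of 0.05, and 73, 72 and 71 of the 74 intervals lay inside the dotted lines from left to right.

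Between the invasive U87MGR and the non-invasive U87MGL, no oxidative phosphorylation gene was called different. The lack of a call does not show that the genes were unchanged. None of the 87 passed an adjusted p of 0.05 in limma, with a background of 0.0413% called higher and 0.117% called lower. At an unadjusted p under 0.05 only the assembly factor NDUFAF1 was lower (background 4.94%) and no gene was higher (background 3.91%). The median log2 fold change was 0.02 over the 87 genes and 0.00 over all genes tested. Among the 74 tested subunits 42 lay above 0 (background 50.3%) and 32 below it (background 49.7%). Arrays of U87MGR lay wholly above those of U87MGL for 13 subunits and wholly below them for 13 (background 23.3% each way). Within the spike-in cluster that held both derivatives the subunit median was -0.03, with 31 above 0 and 43 below. The medians by complex were -0.02 for complex I, 0.02 for complex II, 0.02 for complex III, 0.08 for complex IV and 0.04 for complex V.

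The intervals give how much difference the arrays leave room for. For 73 of 74 subunits the 95% interval of U87MGR against U87MGL lay inside a 2-fold difference in either direction, COX4I2 being the exception. Inside 1.5-fold lay 61 of the 74, against 40.8% of all genes tested. The median absolute log2 fold change was 0.10 for subunits and 0.17 for all genes tested. These sets were not matched for signal level. The median of the subunit means was 11.84, and the array medians over all genes tested were 7.75 to 7.88. The median SE was 0.16 for subunits and 0.19 for all genes tested. The part of brightness in the narrower spread was not tested.

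Against the parental line the picture was the same for the subunits. In U87MGR against U87MG, 1 of the 87 genes was higher at an adjusted p under 0.05 (background 1.86%) and 0 were lower (background 1.44%). In U87MGL against U87MG, 1 gene was higher (background 3.02%) and 0 were lower (background 1.8%). In both comparisons that gene was the noncoding RNA NDUFB2-AS1, and none of the 74 subunits passed in limma. At an unadjusted p under 0.05, 0 subunits were higher and 3 lower in U87MGR, and 1 was higher and 4 lower in U87MGL. For all 87 genes these counts were 2 higher (background 11%) and 7 lower (background 9.78%) in U87MGR, and 4 higher (background 13.2%) and 4 lower (background 10.1%) in U87MGL. The 2 comparisons share the U87MG arrays, so their values are set side by side here and are not counted as separate evidence.

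Small negative differences were the more frequent sign. The median subunit was at -0.05 in U87MGR and -0.06 in U87MGL against U87MG, with all genes at -0.01 and -0.02. Over the tested members, U87MG replicate 2 minus replicate 1 had a median of 0.11, larger than these shifts. The same measure was -0.04 in U87MGL and 0.03 in U87MGR. In each comparison 49 of 74 subunits lay below 0, where 50.6% and 51.9% of all genes did. Arrays of U87MGR lay wholly below those of U87MG for 23 subunits and wholly above them for 9 (background 24.2% each way). For U87MGL these counts were 28 below (background 28.3%) and 11 above (background 28.1%). Within the spike-in cluster that held both groups the subunit median of U87MGR against U87MG was -0.03, with 39 of 74 below 0. The median over the 87 genes in U87MGL was -0.01 with each array centred on its median and 0.00 with spike-in clusters as a block, and with any single array left out it stayed between -0.10 and -0.03. The 95% intervals of 72 subunits in U87MGR and 71 in U87MGL lay inside 2-fold, the exceptions being COX4I2 and SDHC in both and ATP5F1D in U87MGL.

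**Figure D2:**
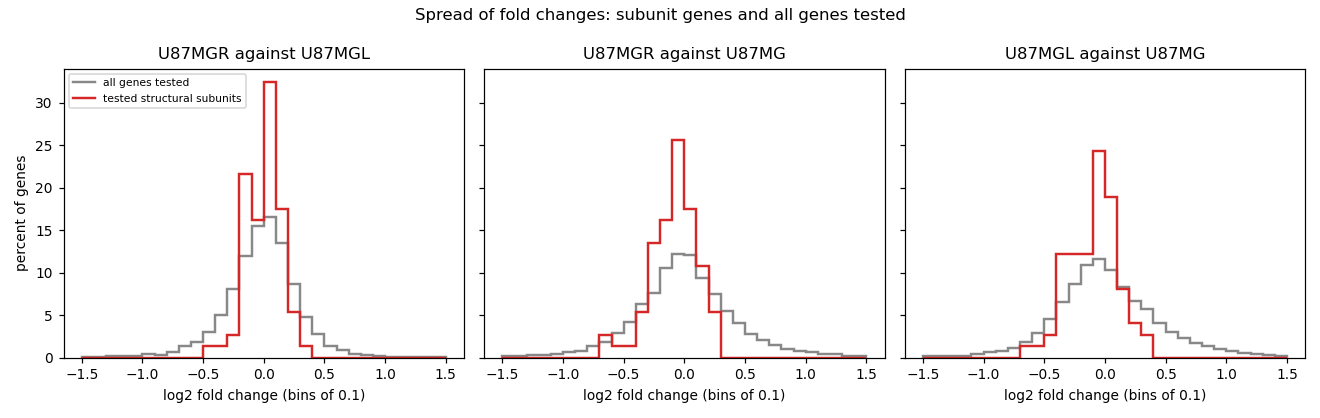
Percent of genes (y axis) in bins of 0.1 of the log2 fold change (x axis) for the 74 tested structural subunits (red) and all 14513 genes tested (grey), one panel per comparison. The subunits were packed nearer 0 than all genes, with a median absolute difference of 0.10, 0.14 and 0.13 from left to right against 0.17, 0.23 and 0.25. The sets were not matched for signal level.

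The change that passed the test was annotated to a gene opposite a subunit gene and not to a subunit. NDUFB2-AS1 is a noncoding RNA gene on the strand opposite NDUFB2, which encodes a supernumerary subunit of the membrane arm of complex I. Its log2 signal was 5.08 and 5.01 in U87MG, 5.98 and 6.06 in U87MGL, and 5.88 and 6.10 in U87MGR. All 4 derivative arrays stood above both U87MG arrays, and the derivatives overlapped each other. The difference from U87MG was 0.94 (SE 0.16, 1.92-fold, adjusted p = 0.0343, limma) in U87MGR and 0.97 (SE 0.16, 1.96-fold, adjusted p = 0.0241, limma) in U87MGL. Between the derivatives it was -0.03 (95% interval -0.40 to 0.34). The gene was dim, about 1 log2 unit above the limit for testing, and was read from 1 probe set. The strand that this probe set reads was not checked. Within the spike-in cluster that held U87MG replicate 1 and U87MGR replicate 2 the difference was 1.01. With U87MG replicate 2 left out, the adjusted p was 0.0674 for U87MGR and 0.0598 for U87MGL, and with any single U87MGR or U87MGL array left out it was also above 0.05 in both comparisons, at up to 0.183 and 0.188. With 2 spike-in clusters as a block the adjusted p was 0.108 for U87MGR and 0.348 for U87MGL (limma). With 3 clusters the fit holds 1 U87MG array, and no p-value is given. Over the 16 alternatives run the difference lay at 0.83 to 1.05 in U87MGR and 0.93 to 1.19 in U87MGL. Several of these cannot move it, such as other limits on dim genes and fits of only the 2 groups compared. The mean over probe sets cannot either, as the gene has 1.

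NDUFB2 itself did not pass the test. It gave 12.11 and 12.24 in U87MG, 12.37 and 12.26 in U87MGL, and 12.40 and 12.38 in U87MGR. The derivatives were again above U87MG on every array, by 0.21 (95% interval -0.15 to 0.57) in U87MGR and 0.13 (-0.22 to 0.49) in U87MGL. In RefSeq the NDUFB2-AS1 start lies 369 bases downstream of the NDUFB2 start, on the other strand. The promoters of both genes (250 bases before to 50 after the RefSeq start, build GRCh38.p14, 5′ to 3′ on the strand of the gene) are shown because this pair holds the one call. NDUFB2-AS1 is at chr7:140697028-140697327 on the minus strand and NDUFB2 at chr7:140696458-140696757 on the plus strand. Capitals mark GGGCGG or its reverse complement CCGCCC, the core of an SP1 site.
NDUFB2-AS1: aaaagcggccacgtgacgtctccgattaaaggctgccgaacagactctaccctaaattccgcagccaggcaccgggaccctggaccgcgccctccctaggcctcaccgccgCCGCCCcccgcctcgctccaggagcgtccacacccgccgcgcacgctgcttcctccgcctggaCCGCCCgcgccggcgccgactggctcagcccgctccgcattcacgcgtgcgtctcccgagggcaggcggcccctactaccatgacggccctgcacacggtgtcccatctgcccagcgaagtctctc
NDUFB2: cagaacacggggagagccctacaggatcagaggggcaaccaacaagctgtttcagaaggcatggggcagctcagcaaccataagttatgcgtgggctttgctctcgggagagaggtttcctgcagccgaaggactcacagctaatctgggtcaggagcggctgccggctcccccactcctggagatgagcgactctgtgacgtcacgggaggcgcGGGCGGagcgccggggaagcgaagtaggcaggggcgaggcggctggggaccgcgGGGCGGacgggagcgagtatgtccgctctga

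The other noncoding neighbours showed no call. NDUFV1-DT, which starts beside the core subunit gene NDUFV1, differed from U87MG by 0.28 in U87MGR and 0.03 in U87MGL. NDUFV2-AS1 differed by -0.57 (adjusted p = 0.213, limma) and -0.11. The tested pseudogene ATP5MC2P1, a copy of a subunit c gene, differed by -0.63 (adjusted p = 0.209, limma) and -0.42, and signal of such a copy cannot be told apart from that of its parent gene.

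Complex I oxidises NADH, and its nuclear core holds the flavin and iron-sulphur subunits. Of the 5 core subunits measured (NDUFS1, NDUFS3, NDUFS7, NDUFV1 and NDUFV2) none passed the test. Of these 5 the farthest from U87MG was NDUFV1, the subunit that binds NADH and flavin. It gave 11.60 and 11.58 in U87MG, 11.33 and 11.19 in U87MGL, and 11.26 and 11.03 in U87MGR. Both derivatives lay below the parent without overlap, by -0.45 in U87MGR (SE 0.16, adjusted p = 0.183, limma) and -0.33 in U87MGL (adjusted p = 0.267, limma). A second, dim probe set of NDUFV1 (mean 5.60) gave -0.11 and -0.08. NDUFS7, which carries the last iron-sulphur cluster before ubiquinone, differed by -0.35 in U87MGR and -0.30 in U87MGL with SE 0.19. With 2 or 3 spike-in clusters as a block it was at -0.18 and -0.05 in U87MGR and turned to 0.04 and 0.17 in U87MGL. NDUFS1, NDUFS3 and NDUFV2 lay between -0.12 and 0.06 in both comparisons. The core subunit NDUFS8 was not tested, because its probe sets are shared with microRNA symbols. Its probe set with a mean of 10.70 gave 10.96 and 11.22 in U87MG, 10.49 and 10.45 in U87MGL, and 10.51 and 10.58 in U87MGR. That with a mean of 11.38 gave 11.57 and 11.65, 11.28 and 11.15, and 11.18 and 11.44 in that order. On both, no derivative array reached U87MG. On a dimmer probe set (mean 7.37) the groups overlapped.

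The 28 supernumerary subunits of complex I surround the core and were spread on both sides of 0. In U87MGR 9 were above U87MG and 19 below, and in U87MGL 14 were above and 14 below. NDUFS4, needed for a stable NADH-oxidising module, had the largest difference of the tested subunits of complex I. Its signal was 10.91 and 10.77 in U87MG, 10.12 and 10.44 in U87MGL, and 10.29 and 10.34 in U87MGR. No derivative array reached the parent, and the difference was -0.52 in U87MGR (SE 0.17, adjusted p = 0.149, limma) and -0.56 in U87MGL (SE 0.17, adjusted p = 0.115, limma). Between the derivatives it was 0.04 (95% interval -0.37 to 0.44). With the mean over its probe sets in place of the brightest, NDUFS4 was at -0.14 in U87MGR and -0.27 in U87MGL; the second probe set had a mean of 3.45, under the limit. NDUFB7 was the farthest subunit of complex I between the derivatives, at -0.30 (SE 0.18, adjusted p = 0.667, limma), with NDUFB1 at 0.22 and NDUFA3 at 0.22.

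**Figure D3:**
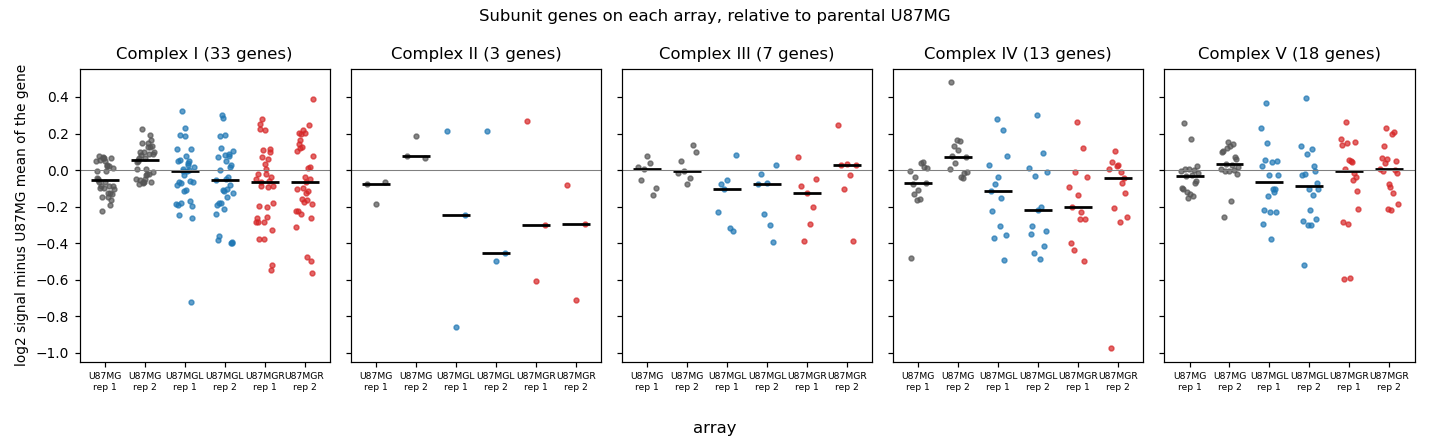
Log2 signal of each tested structural subunit gene minus its mean in U87MG (y axis) on each of the 6 arrays (x axis), one panel per complex; points are genes, bars are medians, and rep is the replicate. Complexes I and V sit around 0 on all arrays, and 2 of the 3 genes of complex II lie below both U87MG arrays in every derivative array.

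Assembly factors build complex I and are not part of the finished enzyme. They held the differences nearest to a call after NDUFB2-AS1. NDUFAF5, a factor that modifies the NDUFS7 subunit early in assembly, gave 6.64 and 6.80 in U87MG, 7.37 and 7.75 in U87MGL, and 7.59 and 7.34 in U87MGR. Every derivative array was above both U87MG arrays, by 0.75 (SE 0.19, 1.68-fold, adjusted p = 0.0844, limma) in U87MGR and 0.84 (SE 0.19, 1.79-fold, adjusted p = 0.0567, limma) in U87MGL. A second probe set of the gene gave 0.74 and 0.79, and with each array centred on its median NDUFAF5 passed in U87MGL at 0.89 (adjusted p = 0.0489, limma). The promoter of NDUFAF5 (chr20:13784778-13785077, plus strand, GRCh38.p14) is shown with that of NDUFS4 (chr5:53560389-53560688, plus strand), the subunit on the other side of 0. Capitals mark an NRF1 motif (GCGCATGCG on both strands, overlapping) in the first and a YY1 motif (AAGATGGCG) in the second.
NDUFAF5: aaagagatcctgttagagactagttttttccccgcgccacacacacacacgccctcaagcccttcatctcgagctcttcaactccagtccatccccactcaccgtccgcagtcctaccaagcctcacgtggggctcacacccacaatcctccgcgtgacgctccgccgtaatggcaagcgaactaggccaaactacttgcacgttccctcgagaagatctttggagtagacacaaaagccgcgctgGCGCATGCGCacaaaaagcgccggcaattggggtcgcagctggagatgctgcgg
NDUFS4: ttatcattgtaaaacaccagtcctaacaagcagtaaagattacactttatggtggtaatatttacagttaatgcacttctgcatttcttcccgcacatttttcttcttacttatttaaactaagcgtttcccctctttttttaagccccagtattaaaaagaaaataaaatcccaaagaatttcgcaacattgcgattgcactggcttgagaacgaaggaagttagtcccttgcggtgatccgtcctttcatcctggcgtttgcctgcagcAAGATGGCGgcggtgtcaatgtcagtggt

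NDUFAF1, a chaperone of the intermediate that becomes the membrane arm, had the derivatives on opposite sides of U87MG, but the difference between them did not pass the test. It gave 9.08 and 9.10 in U87MG, 9.31 and 9.49 in U87MGL, and 8.68 and 8.33 in U87MGR. U87MGR was lowest and U87MGL highest, with no overlap between any groups. U87MGR was below U87MGL by -0.89 (SE 0.18, 1.86-fold, adjusted p = 0.168, limma) and below U87MG by -0.58 (adjusted p = 0.128, limma). Within spike-in clusters these differences were -0.71 and -0.75. The excess of U87MGL over U87MG was 0.31 (adjusted p = 0.336, limma), and it was -0.04 with 2 clusters and -0.03 with 3 clusters as a block. NDUFAF8 differed from U87MG by 0.46 (adjusted p = 0.131, limma) in U87MGL and 0.26 in U87MGR on its brightest probe set. The other 2 were at 0.02 and -0.24 in U87MGL and -0.13 and -0.06 in U87MGR, and the mean over all 3 gave 0.08 and 0.02. On their brightest probe sets NDUFAF2, NDUFAF3, NDUFAF6 and NDUFAF7 lay between -0.22 and 0.30 in all 3 comparisons, and NDUFAF4 was at 0.35 between the derivatives (adjusted p = 0.626, limma). The next probe set differed from U87MG by 0.40 in U87MGR and 0.70 in U87MGL for NDUFAF6, and by -0.50 and -0.23 for NDUFAF7.

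**Figure D4:**
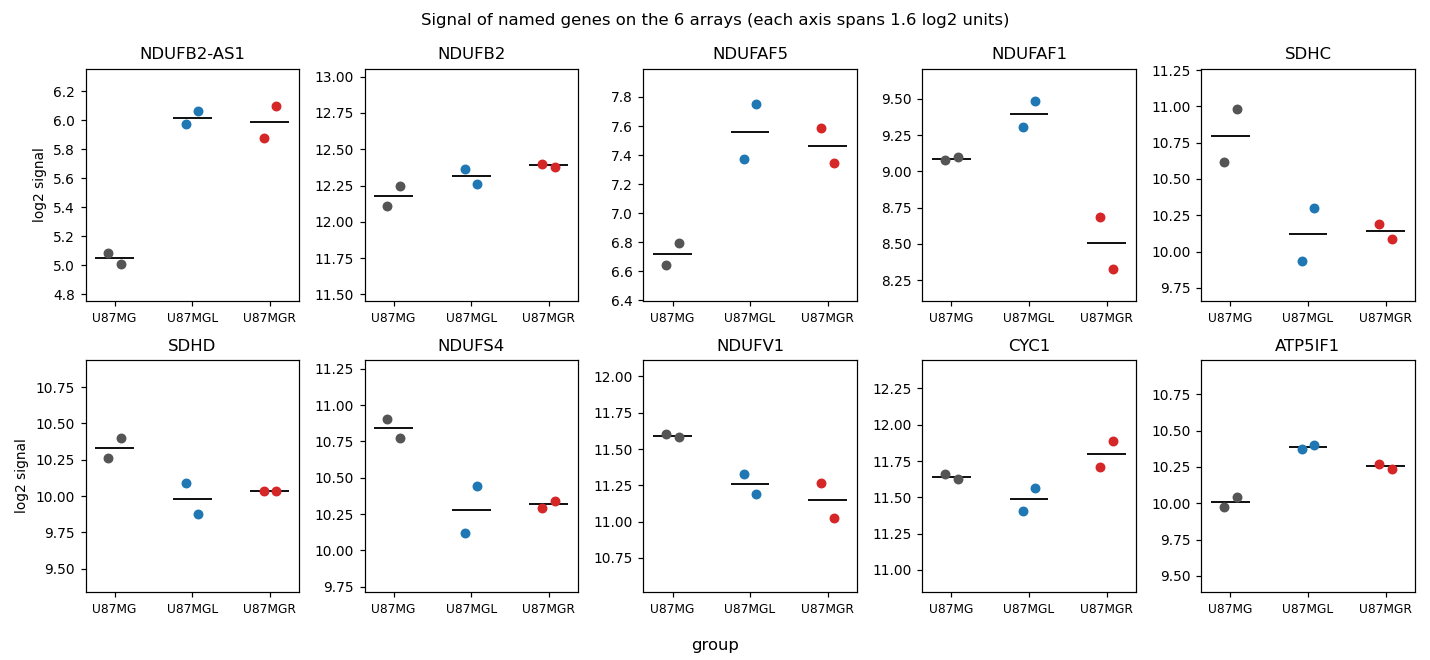
Log2 signal (y axis, every panel spanning 1.6 units) of 10 genes in the 3 groups (x axis); points are arrays and bars are group means over 2 arrays. NDUFB2-AS1 and NDUFAF5 are higher, and SDHC and NDUFS4 lower, in all 4 derivative arrays than in both U87MG arrays, and in NDUFAF1 U87MGL lies above and U87MGR below the parent.

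Complex II had 3 genes measured. SDHC encodes one of the membrane anchors that bind ubiquinone. Its signal was 10.62 and 10.98 in U87MG, 9.94 and 10.30 in U87MGL, and 10.19 and 10.09 in U87MGR. The derivative arrays lay below both U87MG arrays and overlapped each other. The difference was -0.66 in U87MGR (SE 0.20, 1.58-fold lower, adjusted p = 0.125, limma) and -0.68 in U87MGL (SE 0.20, 1.6-fold lower, adjusted p = 0.105, limma), and 0.02 between the derivatives (95% interval -0.45 to 0.50). Of the 7 SDHC probe sets, 5 differed by -0.60 to -0.92 in U87MGR and by -0.56 to -0.68 in U87MGL. The other 2 were at -0.19 and 0.21 in U87MGR and 0.11 and 0.21 in U87MGL, and probe sets of 1 gene on the same arrays are not replicates.

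The second anchor, SDHD, gave 10.26 and 10.40 in U87MG, 10.09 and 9.88 in U87MGL, and 10.03 and 10.04 in U87MGR. It too was lower on every derivative array, by -0.30 (adjusted p = 0.34, limma) in U87MGR and -0.35 (adjusted p = 0.241, limma) in U87MGL, or by -0.07 and -0.20 with the mean over its probe sets. SDHA, the flavoprotein that oxidises succinate, gave 10.58 and 10.73 in U87MG, 10.87 on both U87MGL arrays, and 10.92 and 10.57 in U87MGR. It was not below U87MG, with differences of 0.09 and 0.22, the second at -0.13 and -0.06 with 2 or 3 spike-in clusters as a block. Within the cluster shared by U87MG replicate 1 and U87MGR replicate 2 the differences were -0.53 for SDHC, -0.23 for SDHD and -0.01 for SDHA.

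In complex III the 7 genes lay at a median of -0.05 in U87MGR and -0.15 in U87MGL against U87MG, and 6 of the 7 were below 0 in each comparison. UQCRC2, a core protein on the matrix side, had the largest of these at -0.30 and -0.36 (SE 0.17 each, adjusted p = 0.372 and 0.254, limma). CYC1, the cytochrome c1 that passes electrons to cytochrome c, ran the other way between the derivatives. It gave 11.66 and 11.62 in U87MG, 11.41 and 11.57 in U87MGL, and 11.71 and 11.89 in U87MGR. The groups did not overlap, and U87MGR exceeded U87MGL by 0.31 (SE 0.16, 95% interval -0.06 to 0.68, adjusted p = 0.634, limma).

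Complex IV, cytochrome c oxidase, has several subunits with alternative isoforms for particular tissues. COX4I1, the general form of the first nuclear subunit, gave 13.08 and 13.09 in U87MG and 13.12 and 13.10 in U87MGL, and among the U87MGR arrays replicate 2 was at 13.09 and replicate 1 was the lowest of all. U87MGR overlapped U87MG, and both U87MGL arrays lay just above them; the difference was -0.06 between the derivatives, -0.04 in U87MGR and 0.02 in U87MGL against the parent. COX4I2, a form known for its induction by low oxygen, gave 5.96 and 6.93 in U87MG, 6.33 and 6.09 in U87MGL, and 6.04 and 5.47 in U87MGR. U87MG overlapped both derivatives, and both U87MGR arrays lay below both U87MGL arrays. The difference of U87MGR from U87MG was -0.69 (SE 0.34, 95% interval -1.49 to 0.11), or -0.21 without U87MG replicate 2, and that of U87MGL was -0.23, or 0.25 without that array. COX6A2 (4.59 to 5.05) and COX6B2 (5.02 to 5.67), forms of muscle and testis, were near the limit for testing and did not pass.

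The tested subunits of complex IV had medians of -0.12 in U87MGR and -0.18 in U87MGL against U87MG, with 10 and 9 of 13 below 0. Those farthest below in U87MGL were COX7B at -0.45 (SE 0.19, adjusted p = 0.211, limma) and COX5B at -0.41 (SE 0.17, adjusted p = 0.21, limma). With 2 or 3 spike-in clusters as a block COX7B was at 0.00 and -0.01 and COX5B at -0.18 and -0.05 in U87MGL. These adjusted values carry the difference between the 2 U87MGR arrays. COX5B gave 12.36 and 12.62 in U87MG, 12.12 and 12.03 in U87MGL, and 12.05 and 12.28 in U87MGR. Both derivatives were below the parent without overlap, and in U87MGR the difference was -0.32, or -0.08 within the shared spike-in cluster. COX7B was 12.96 and 12.93 in U87MG and 12.46 and 12.53 in U87MGL, while the U87MGR arrays were apart at 12.45 and 12.90, and without U87MGR replicate 1 the difference of U87MGR from U87MG moved from -0.27 to -0.04. COX7A2L, which helps complexes III and IV join, differed by -0.48 (SE 0.19, adjusted p = 0.205, limma) in U87MGR and -0.27 in U87MGL. Genes now named COXFA4 and COXFA4L2, which were NDUFA4 and NDUFA4L2 before, fall outside the rule by their current symbols, and neither passed the test.

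The ATP synthase genes had medians close to the parental level. The 18 subunits, inhibitor included, had medians of -0.00 in U87MGR and -0.06 in U87MGL against U87MG. The catalytic ATP5F1B gave 12.40 and 12.60 in U87MG, 12.52 and 12.47 in U87MGL, and 12.64 and 12.57 in U87MGR, with all groups close and a difference of 0.10 (95% interval -0.26 to 0.47) between U87MGR and U87MG. ATP5F1A, its partner in the catalytic head, differed by 0.09 and 0.18. The remaining F1 genes differed by -0.14 and -0.29 (ATP5F1C), -0.23 and -0.37 (ATP5F1D) and 0.02 and 0.02 (ATP5F1E) in U87MGR and U87MGL. The sign of ATP5F1D turned with 2 spike-in clusters as a block (0.13 in U87MGR and 0.36 in U87MGL), with 3 clusters in U87MGL (0.10), and in U87MGR without U87MGR replicate 1 (0.13) or U87MG replicate 1 (0.02). That of ATP5F1C turned with 3 clusters, to 0.10 in both comparisons. The 3 genes of subunit c, the rotor ring, encode the same mature protein and lay between -0.25 and 0.12. ATP5ME differed by -0.34 in U87MGR and -0.22 in U87MGL. Over the 16 alternatives it ran from -0.59 to 0.04 and from -0.35 to 0.41. ATP5PD and ATP5MF were each at 0.25 between the derivatives. ATP5MF differed from U87MG by -0.08 in U87MGR and -0.34 in U87MGL on a dim probe set. Its bright shared probe set gave 12.34 and 12.59 in U87MG, 12.42 and 12.34 in U87MGL, and 12.59 and 12.85 in U87MGR.

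The inhibitor ATP5IF1, which blocks ATP hydrolysis by the enzyme, was the gene of complex V farthest above 0. Its signal was 9.97 and 10.04 in U87MG, 10.37 and 10.40 in U87MGL, and 10.27 and 10.24 in U87MGR. The groups did not overlap, with U87MGL highest and U87MG lowest. It exceeded U87MG by 0.38 (SE 0.15, 1.30-fold, adjusted p = 0.18, limma) in U87MGL and by 0.25 (SE 0.15, adjusted p = 0.386, limma) in U87MGR.

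Genes that act on the respiratory chain were read from lists of pathway genes. Of 22 regulators of mitochondrial biogenesis, 1 was lower in U87MGL than in U87MG (4.55%, background 1.8%) and none passed in the other comparisons. The list medians were 0.07 between the derivatives, 0.17 in U87MGR and 0.16 in U87MGL against U87MG. The gene that passed was PPARGC1A, a coactivator known to drive transcription of nuclear respiratory genes. It gave 6.79 and 7.01 in U87MG, 4.62 and 4.03 in U87MGL, and 5.91 and 6.32 in U87MGR. U87MGL lay below all other arrays and U87MGR between the groups. Both U87MGL values lay under the limit of 4.73 for testing, and the gene passed that limit through U87MG and U87MGR, so the size of the difference rests on signals of U87MGL at that dim end. The difference was -2.58 in U87MGL (adjusted p = 0.00814, limma) and -0.79 in U87MGR (adjusted p = 0.131, limma) against U87MG, and 1.79 between the derivatives (adjusted p = 0.071, limma). With the mean over its probe sets the U87MGL difference was -1.35 (adjusted p = 0.0187, limma). With 2 or 3 spike-in clusters as a block it was -2.17 and -2.06. With 2 clusters it no longer passed, at adjusted p = 0.316 (limma).

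The subunits above did not pass in the comparison in which PPARGC1A did. The factors that bind respiratory promoters were NRF1, at 0.58 in U87MGR and 0.71 in U87MGL (adjusted p = 0.113 and 0.0613, limma), and GABPA, at -0.36 and -0.04. TFAM, which packs and transcribes mitochondrial DNA, was at 0.33 and 0.38 (adjusted p = 0.265 and 0.188, limma). The 7 mitochondrially encoded genes tested had medians of 0.11 between the derivatives, 0.09 in U87MGR and -0.03 in U87MGL against U87MG, and none passed (0 at an unadjusted p under 0.05).

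**Figure D5:**
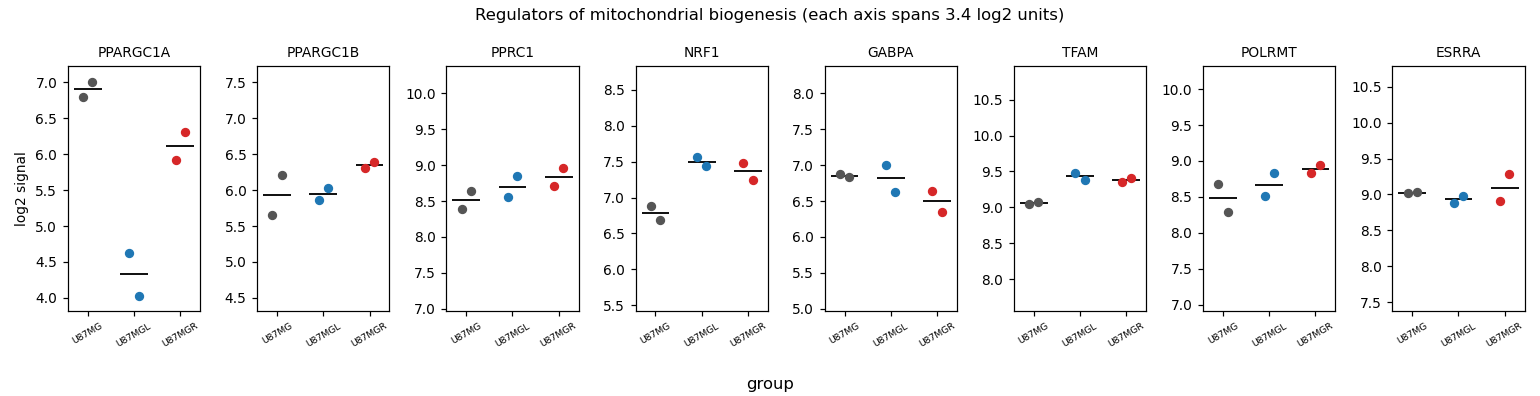
Log2 signal (y axis, every panel spanning 3.4 units) of 8 regulators of mitochondrial biogenesis in the 3 groups (x axis); points are arrays and bars are group means over 2 arrays. PPARGC1A is lowest in both U87MGL arrays, at 4.62 and 4.03, which lie under the limit of 4.73 for testing, and is the gene here that passed the test in U87MGL against U87MG.

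Motifs of these factors were counted in the RefSeq promoters of 73 protein-coding members, on both strands. The NRF1 motif GCGCATGCG stood in 11 (15.1%), against 2.76% of 15843 coding promoters and 2.10% of all 27305. The GABP motif CCGGAAG stood in 19 (26%, against 14.2% and 10.7%), the YY1 motif AAGATGGCG in 7 (9.59%, against 2.74% and 1.85%) and the SP1 core GGGCGG in 42 (57.5%, against 58.5% and 44.6%). Genes with the NRF1 motif had a median of -0.15 in U87MGR and -0.18 in U87MGL against U87MG, and genes without it -0.04 and -0.05. For GABP these medians were -0.06 and -0.12 with the motif and -0.04 and -0.04 without it. For YY1 they were -0.06 and -0.01 with it and -0.05 and -0.06 without it. For SP1 they were -0.08 and -0.07 with it and -0.03 and -0.01 without it. These splits were not tested. A match describes these letters in the window and not a bound site.

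The remaining lists gave few calls. Of 34 tested assembly factors of complexes II to V, SDHAF3, a factor of complex II, was higher in U87MGL (7.88 and 7.43, against 6.72 and 6.54 in U87MG) by 1.02 (adjusted p = 0.042, limma), and no other passed (2.94% higher, background 3.02%). That call was lost with either U87MGL array left out (adjusted p = 0.206 and 0.119, limma), with U87MG replicate 2 left out (0.115), with either U87MGR array left out (0.0782), and with 2 or 3 spike-in clusters as a block (0.652 and 0.454). None of 8 further complex I assembly factors or of 20 genes of mobile carriers and inner membrane exchange passed in any comparison, and cytochrome c (CYCS) was at 0.41 between the derivatives (adjusted p = 0.475, limma). In the citric acid cycle list of 22 genes, PDK2, a kinase that shuts off pyruvate dehydrogenase, was lower in U87MGR (7.55 and 7.27, against 8.47 and 8.29 in U87MG) by -0.97 (adjusted p = 0.0441, limma), the 1 call of that list (4.55%, background 1.44%). Of 72 mitochondrial ribosome genes 2 were lower in U87MGR (2.78%, background 1.44%), MRPS6 by -0.98 and MRPS21 by -0.99. The calls of PDK2, MRPS6 and MRPS21 were lost when any single array was left out, at adjusted p between 0.0518 and 0.227 (limma).

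Lists outside the mitochondrion are given beside these. Of 28 cell cycle genes, 12 were higher in U87MGR (42.9%, background 1.86%) and 16 in U87MGL (57.1%, background 3.02%) than in U87MG, with medians of 0.97 and 0.99 and no call between the derivatives. The 29 genes of hypoxia and glycolysis held no call, with 27 below 0 and a median of -0.32 in U87MGR against U87MGL and a median of 0.37 in U87MGL against U87MG. At an unadjusted p under 0.05, 1 was higher (background 3.91%) and 6 were lower (background 4.94%) in U87MGR against U87MGL, 2 were higher (background 11%) and 2 lower (background 9.78%) in U87MGR against U87MG, and 8 were higher (background 13.2%) and 1 lower (background 10.1%) in U87MGL against U87MG.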

How the data were processed

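RNA of the 6 cultures (5 ug of total RNA, made into biotinylated cRNA per the labels' protocols) was read on single-colour arrays. The deposited table held the authors' log2 values for 54675 probe sets; their normalization, not given in the sources used here, was left as deposited. Symbols came from the platform annotation: 41097 probe sets had 1 symbol, 1801 had several and 11777 had none. The brightest 1-symbol probe set stood for each gene, and the 14513 genes with a mean at or above the 40th percentile of all probe sets (4.73) were tested with limma 3.58.1 in R 4.3.3 (lmFit and eBayes, 3 group means, 3 residual degrees of freedom, two-sided, Benjamini-Hochberg adjustment, threshold 0.05). With 2 arrays a group the precision was low, at a median SE of 0.19. The members, the gene lists and the tests were chosen with earlier results of these data known. Genes to be named were set as, per complex and comparison, those that passed or the 2 farthest from 0, fixed core subunits and isoforms, and up to 2 calls per list and direction. Not all of these are given with values, among them UQCRC1, UQCR11, COX6A1, COX6B1, COX7A2 and COX8A. Others, with NDUFS4 and NDUFAF8, were named after their values were seen. The procedure was also run on simulated data with independent noise and no cluster effect. That run cannot show how the spike-in clusters bear on the results. Samples with the same replicate number did not deviate together (correlations -0.09, 0.11 and 0.01), so the numbers were not taken as pairs. Alternatives were other scalings, filters and probe rules, arrays left out, replicate or spike-in blocks, moderation with a trend, and pairwise fits. The fit with 3 spike-in clusters left out U87MG replicate 2, which was alone in its cluster. Sequences are from RefSeq (GRCh38.p14); all 91 genes matched by gene number.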

Additional observations from a re-analysis of the deposited data

Results flagged for a closer look

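In 3 of the 87 tested genes (3.45%, against 2.05% of all genes tested) the derivatives lay on opposite sides of both U87MG arrays. U87MGR against U87MGL was 0.31 for CYC1, -0.89 for NDUFAF1 and -0.11 for NDUFB4, and none of these differences passed in limma (adjusted p = 0.634, 0.168 and 0.869). For NDUFAF1 the value of U87MGL against U87MG was -0.04 with 2 spike-in clusters as a block, and for CYC1 it ranged from -0.23 to 0.02 over the alternatives run. Groups of 2 arrays allow no test for a single outlying array.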

How the results depend on the processing

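In U87MGR against U87MGL the count of called genes was 0 under every alternative run, and the median over the 87 genes was 0.017, 0.076 with quantile normalization and -0.037 with 2 or 3 spike-in clusters as a block; with each array left out in turn it ran from -0.037 (without U87MGR replicate 2) to 0.017. In U87MGR against U87MG and in U87MGL against U87MG the single call, NDUFB2-AS1, became 0 calls with 2 or 3 spike-in clusters as a block, with only the 2 groups compared, and with structural subunits only (which leaves that gene out); with an array left out the count ran from 0 to 1, and 1 was kept in both comparisons without U87MG replicate 1. Centring each array on its median gave 2 calls in U87MGL against U87MG (NDUFAF5 joined) and a median of -0.015, and 2 and 3 spike-in clusters as a block gave medians of 0.0045 and 0.0039 there. With arrays left out the median ran from -0.08 to -0.04 in U87MGR and from -0.10 to -0.03 in U87MGL against U87MG. The cause of these shifts was not tested. With the replicate number as a block the counts were 0, 1 and 1 and the medians 0.02, -0.05 and -0.06, so the block changed no count. Where a gene has over 1 probe set above the limit (43 genes), the brightest and the next had the same sign in 28, 29 and 34 genes for the 3 comparisons in the order above. The largest gap was in NDUFC1, at 0.04 and 1.24 in U87MGL against U87MG. Between the derivatives its 2 probe sets gave 0.05 and -0.89. No background signal was used, so how far a dim gene such as NDUFB2-AS1 stood above it was not tested.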
